A study of Mus musculus with 18 samples.

Results

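The long-chain fatty acid machinery of the mouse liver was followed through 10 genes, namely the desaturases *Fads1* and *Fads2*, the elongases *Elovl1*, *Elovl2*, *Elovl3* and *Elovl5*, and the enzymes shared by every elongation round, *Hsd17b12*, *Hacd2*, *Hacd3* and *Tecr*. They were chosen by symbol, matched to the Ensembl identifiers of the count lists, and make up 10 of the 22524 genes listed and 10 of the 13353 that held enough counts to be tested. RNA was sequenced from the livers of 10 female *Rps2*-A226Y mice and 8 female WT mice, with 1 library per mouse. All were 15 months old and on a C57BL/6 background. The knock-in had been made in embryonic stem cells of another strain and then backcrossed to C57BL/6. The A226Y mice carried 1 knock-in copy of *Rps2* with the A226Y change, which lowers the accuracy of the ribosome, switched on by CMV-Cre excision of a floxed stop cassette. CMV-Cre acts throughout the body, and the WT mice carried the Cre transgene as well. The A226Y mice were mosaics, in which some cells kept the unexcised, silent knock-in allele and so had a single working copy of *Rps2*.

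Fatty acid elongation takes place in repeated rounds on the endoplasmic reticulum. An ELOVL enzyme first condenses an acyl-CoA with malonyl-CoA, and the product is then reduced by HSD17B12, dehydrated by a HACD enzyme and reduced again by TECR, which leaves a chain longer by a carbon pair. Desaturases insert double bonds with electrons passed on by cytochrome b5. In the liver, FADS2, ELOVL5, FADS1 and ELOVL2 act one after another on dietary linoleic and α-linolenic acid to make arachidonic and docosahexaenoic acid, whereas ELOVL1 and ELOVL3 lengthen mainly saturated and monounsaturated chains.

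Of the 10 genes, 4 had lower expression in the A226Y mice at an adjusted p under 0.05 (*Elovl3*, *Fads1*, *Tecr* and *Hsd17b12*) and none had higher expression. Among all tested genes, 7.03% were lower, 7.27% were higher and 14.3% passed in either direction. The log2 fold change was negative for 7 of the 10 genes, with a median of −0.20, against a median of −0.00 over all tested genes. The 4 genes differed in how firmly they were called. *Fads1* and *Tecr* also passed an exact permutation test adjusted over all genes, as 13.1% of tested genes did, whereas *Hsd17b12* lay at the threshold and *Elovl3* varied widely among the WT mice. For 0 of the 10 genes did the genotypes separate completely, as they did for 0.637% of all tested genes (0.285% with every A226Y mouse lower and 0.352% with every one higher). With 4 surrogate variables as covariates no member passed, and only 21 lower and 29 higher genes were left in the whole liver transcriptome.

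The targeted gene, *Rps2*, averaged 68.6 ± 13.3 CPM (SD, n = 10) in the mutant livers and 114.0 ± 13 CPM (SD, n = 8) in WT livers, where CPM stands for counts relative to the TMM-scaled library size. Total counts ran from 23850565 to 62126131 per A226Y mouse and from 25869192 to 34918732 per WT mouse. The hepatocyte markers together took 99865 to 160235 CPM in A226Y and 111226 to 180152 CPM in WT, so the libraries carried the labelled tissue. Sums over markers, here and below, are CPM of the total counts, without TMM scaling. The libraries of A226Y mouse 29 and WT mouse 33 stood apart, with a median correlation to their own genotype of 0.9658 and 0.9731 against at least 0.9795 for the other mice. Kupffer cell markers summed to 1151 CPM in A226Y mouse 29, and lymphoid markers to 619 CPM in WT mouse 33, each the highest of its genotype. Where leaving out both mice changed a member's call, the value without them is given.

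Promoter windows of 300 bases (250 before and 50 after a RefSeq start, GRCm38.p6) were at hand for 8 members (10 windows, since *Elovl1* and *Elovl2* have 2 each), all but *Fads1* and *Elovl3*. They were searched on both strands for the NF-Y box CCAAT, the sterol element TCACNCCAC and the E-box CACGTG, and no 2 matches overlapped. The NF-Y box is shown because NF-Y commonly partners SREBP at promoters of lipid genes and because it was the most frequent match, present in 5 of the 10 windows (1 each of *Elovl1*, *Elovl5*, *Hsd17b12*, *Hacd3* and *Tecr*) and in 37.4% of all 32851 windows. Below, the boxes of the 2 lower members with a window stand above those of *Elovl5*, which did not pass the test. Each is written 5′ to 3′ on the gene's strand with the box in capitals, so that ATTGG is a box on the opposite strand.
Tecr, box 136 bases before the start, chr8:83594613-83594637, minus strand: cttccttttgATTGGtgggtggccg
Tecr, box 54 bases before the start, chr8:83594531-83594555, minus strand: gagaaatctgATTGGtcagttgtgt
Tecr, box 10 bases before the start, chr8:83594487-83594511, minus strand: ccccacgctgATTGGcaggagggac
Hsd17b12, box 174 bases before the start, chr2:94158069-94158093, minus strand: cgaaggctaaCCAATaggagacata
Hsd17b12, box 134 bases before the start, chr2:94158029-94158053, minus strand: agagaagtcaCCAATagacacatgg
Elovl5, box 71 bases before the start, chr9:77917284-77917308, plus strand: tcgccccaggATTGGttccaaggcc
Elovl5, box 17 bases before the start, chr9:77917338-77917362, plus strand: ccgggctcggATTGGctggccgcgc
Boxes thus stood before 2 members that were lower in A226Y mice and before 3 that did not pass the test (*Elovl1*, *Elovl5* and *Hacd3*). An E-box was found in 2 of the 10 windows, those of *Elovl5* (161 bases before the start) and *Hacd3* (78 bases before it), against 7.15% of all windows. The letters of the sterol element, found in 1.24% of all windows, were not in those of the members. The *Tecr* window lies at a RefSeq start inside the longer GENCODE gene.

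**Figure D1:**
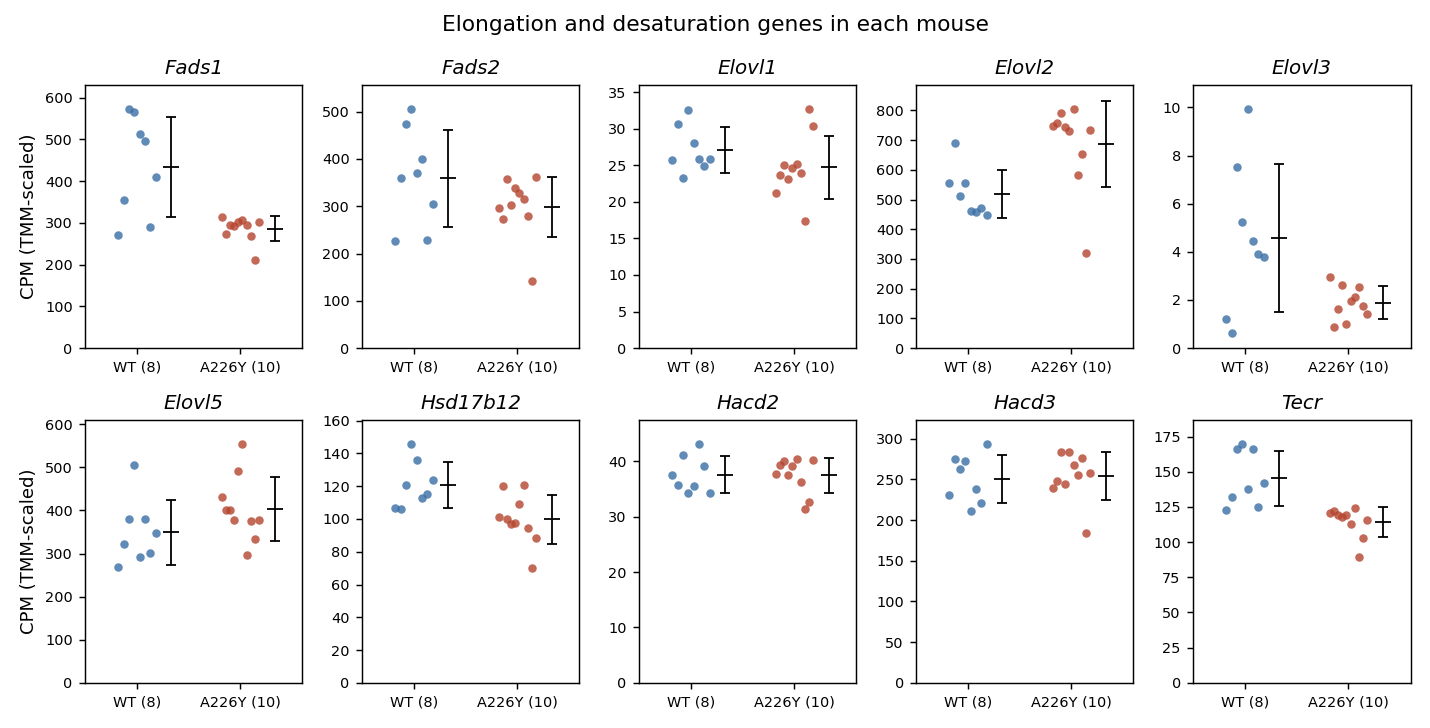
CPM (TMM-scaled, linear axes from 0) of each of the 10 genes in every mouse, WT in blue and A226Y in red, with the mean and SD beside the points. Nearly all A226Y mice lie below the WT mice for *Tecr* (9 of 10 below every WT mouse), the WT mice spread from 271 to 573 CPM for *Fads1*, and 1 A226Y mouse lies far below the others for *Elovl2* (319 CPM) and *Fads2* (141 CPM).

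The desaturases were taken first. *Fads1* (ENSMUSG00000010663, GRCm38 chr19:10182888-10196877, plus strand), which encodes the later-acting desaturase of the polyunsaturated route, ranged from 210 to 313 CPM with a median of 295 in the A226Y mice, and from 271 to 573 CPM with a median of 454 in the WT mice. The WT mice were higher than every A226Y mouse in 6 of 8 cases (355 CPM or more), and the remaining pair, mice 4 and 28, at 271 and 291 CPM, lay within the A226Y range. The mean fell from 434 ± 120 CPM (SD, n = 8) to 286 ± 30.1 CPM (SD, n = 10), which was 65.7% of WT (log2 fold change −0.60, SE 0.13, adjusted p = 0.0066, edgeR quasi-likelihood test). The exact permutation test, two-sided and adjusted over all tested genes, gave p = 0.0209. Leaving out any 1 mouse kept the log2 fold change between −0.68 and −0.54. The coefficient of variation among mice was 10.5% in A226Y and 27.6% in WT.

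*Fads2* (ENSMUSG00000024665, chr19:10062765-10101746, minus strand), the desaturase of the first step, lies 81141 bases from *Fads1*. It ranged from 141 to 361 CPM (median 308) in the A226Y mice and from 227 to 506 CPM (median 365) in the WT mice, and the groups overlapped over most of their range. Its log2 fold change was −0.26 (SE 0.17, 95% interval −0.62 to 0.09, adjusted p = 0.31, edgeR quasi-likelihood test), so a fall as large as that of *Fads1* lay within the interval.

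Because both desaturases were measured in the same library, their ratio does not depend on scaling. The log2 ratio of *Fads2* to *Fads1* ranged from −0.58 to 0.28 (median 0.07) in the A226Y mice and from −0.46 to 0.02 (median −0.29) in the WT mice. The ratio of 7 A226Y mice was above that of every WT mouse, and A226Y mouse 29 (−0.58) had one below them all. The mean was 0.03 ± 0.24 (SD, n = 10) against −0.28 ± 0.15 (SD, n = 8), a difference of 0.31 or 1.24-fold (two-sided exact permutation p = 0.0077, 0.0308 after adjustment over 4 ratios), higher than the WT mean in 9 of 10 A226Y mice. Without A226Y mouse 29 and WT mouse 33 the difference was 0.36 (exact permutation p = 0.000262). *Fads1* was lower relative to *Fads2* in the A226Y livers.

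The levels of the desaturases were correlated among the mice of 1 genotype. In the 8 WT mice Pearson's r of log2 CPM was 0.94 (exact permutation p = 0.00114, 0.0183 adjusted over 16 relations) and Spearman's rho was 0.93 (exact permutation p = 0.00223, 0.0357 adjusted), and r was 0.78 without mice 4 and 28. In the 10 A226Y mice r was likewise 0.94 (permutation p = 0.00415, 0.0332 adjusted), but rho was 0.59 (permutation p = 0.0813, 0.222 adjusted), and without mice 29 and 23 r was 0.47. The A226Y relation was thus weaker by rank and without those 2 mice. In each genotype the mice left out were the 2 farthest from the median of *Fads1*, a choice that narrows the range and can itself lower r. No other relation among the 16 tested, which included *Fads2* and *Elovl5* with *Srebf1* and *Elovl3* with the clock genes *Nr1d1* and *Dbp*, passed after adjustment (lowest adjusted p = 0.081, *Fads2* with *Elovl5* in WT, r = 0.80, permutation test).

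**Figure D2:**
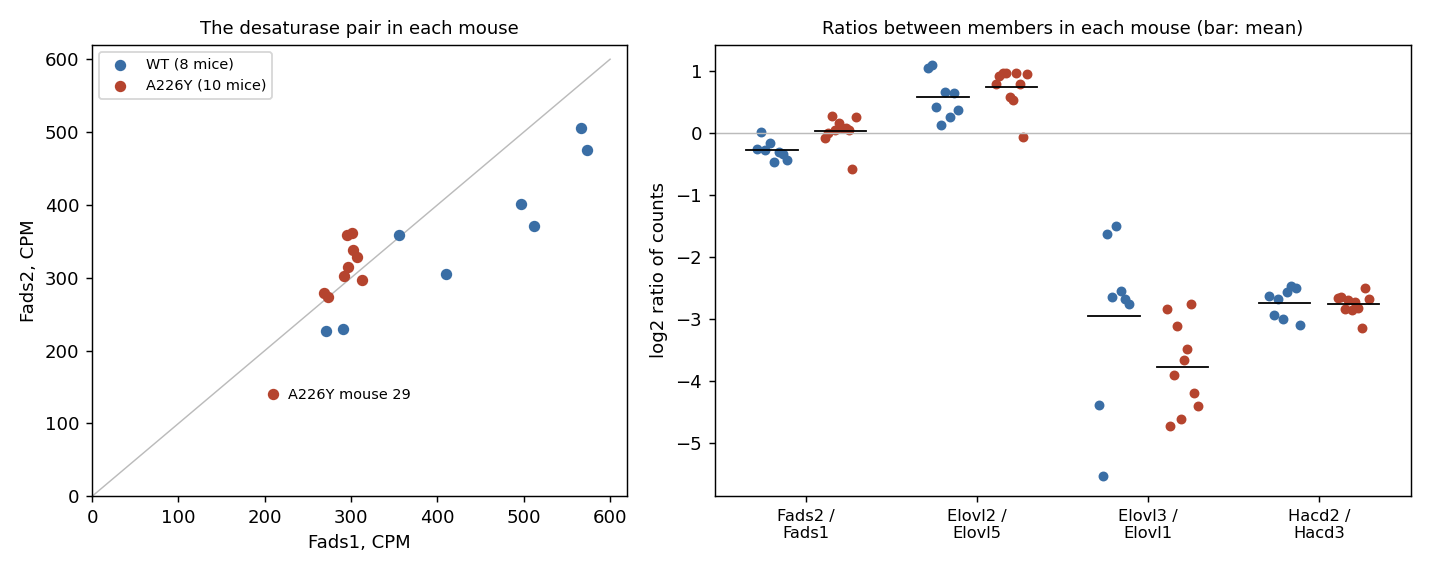
Left, *Fads2* against *Fads1* in CPM for each mouse, with a grey line of equal values. Right, the log2 ratio of counts for 4 pairs of members in each mouse, with a bar at the mean (WT blue, A226Y red). A226Y mice lie on or above the line except mouse 29 and mouse 3, most WT mice lie below it, and the ratio of *Fads2* to *Fads1* averages 0.03 in A226Y and −0.28 in WT.

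The elongases of the polyunsaturated route had positive log2 fold changes, neither of which passed the test. *Elovl2* (ENSMUSG00000021364, chr13:41182381-41220405, minus strand), which acts on the longest polyunsaturated chains, ranged from 319 to 805 CPM (median 740) in the A226Y mice and from 448 to 690 CPM (median 492) in the WT mice. All WT mice were exceeded by 7 A226Y mice, while A226Y mouse 29 lay below them all. The mean was 687 ± 145 CPM (SD, n = 10) against 519 ± 81.3 CPM (SD, n = 8), or 1.32-fold (log2 fold change 0.40, SE 0.14), and the adjusted p of 0.0548 (edgeR quasi-likelihood test) missed the threshold. The result turned on single mice. Without A226Y mouse 29 the log2 fold change was 0.49 with an adjusted p of 0.00186 (edgeR), without mice 29 and 33 it was 0.46 with an adjusted p of 0.0032 (edgeR), and without WT mouse 6, the highest WT mouse, it was 0.47 with an adjusted p of 0.0227 (edgeR). DESeq2 also called it on all mice (0.41, adjusted p = 0.0254), whereas the exact permutation test adjusted over all genes gave p = 0.117.

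*Elovl5* (ENSMUSG00000032349, chr9:77917364-77984519, plus strand), which serves the middle of the same route, ranged from 297 to 555 CPM (median 389) in A226Y and from 269 to 506 CPM (median 334) in WT. The groups overlapped nearly throughout, with a log2 fold change of 0.21 (SE 0.12, 95% interval −0.05 to 0.47, adjusted p = 0.268, edgeR). The log2 ratio of *Elovl2* to *Elovl5* differed between genotypes by 0.16 (two-sided exact permutation p = 0.324, 0.432 adjusted over 4 ratios).

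*Elovl3* (ENSMUSG00000038754, chr19:46131897-46135694, plus strand), an elongase of saturated and monounsaturated chains known for its daily rhythm and sex bias in mouse liver, had the lowest expression of the 10, with 20 to 328 counts per mouse. It ranged from 0.881 to 2.94 CPM (median 1.87) in the A226Y mice and from 0.645 to 9.94 CPM (median 4.17) in the WT mice. All A226Y mice were exceeded by 6 WT mice, WT mouse 6 (0.645 CPM) lay below every one, and WT mouse 4 (1.21 CPM) lay among them. The mean fell to 41.7% of WT, from 4.58 ± 3.07 CPM (SD, n = 8) to 1.89 ± 0.694 CPM (SD, n = 10), with a log2 fold change of −1.26 (SE 0.37, 95% interval −2.03 to −0.49, adjusted p = 0.0281, edgeR quasi-likelihood test). The call was lost with limma-voom (−0.88, adjusted p = 0.193), in the exact permutation test adjusted over all genes (p = 0.173), and in edgeR when WT mouse 13, 14 or 21 was left out (−1.13, −1.23 and −0.99, with adjusted p of 0.065, 0.0535 and 0.077). Of 14 clock genes tested, 1 passed the test: *Clock* was higher, at 35.5 ± 2.61 CPM (SD, n = 10) against 23.2 ± 4.38 CPM (SD, n = 8; log2 fold change 0.61, adjusted p = 0.000932, edgeR). *Nr1d1* (0.45, adjusted p = 0.252, edgeR) and *Dbp* (−0.21, adjusted p = 0.594, edgeR) did not pass, and the part of the daily rhythm in the *Elovl3* result was not tested.

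*Elovl1* (ENSMUSG00000006390, chr4:118428093-118432953, plus strand), which makes the very long saturated chains of sphingolipids, ranged from 17.4 to 32.7 CPM (median 24.3) in A226Y and from 23.2 to 32.6 CPM (median 25.8) in WT. Its log2 fold change of −0.13 (SE 0.10, 95% interval −0.34 to 0.07) did not pass the test (adjusted p = 0.372, edgeR). The log2 ratio of *Elovl3* to *Elovl1* was lower in A226Y by 0.82 on average, a difference that did not pass (value −0.82, two-sided exact permutation p = 0.12, 0.241 adjusted over 4 ratios). Without WT mouse 6 it was −1.18 (exact permutation p = 0.0119). *Elovl1* shares 53 exonic bases with the opposite-strand gene *Cdc20*, and *Elovl3* shares 10 with *Pitx3*. Over all mice these neighbours held 330 and 9 counts, against 14839 for *Elovl1* and 1778 for *Elovl3*, and no other member overlapped an annotated exon of another gene.

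Within the shared cycle, the 2 reductases passed the test as lower and the 2 dehydratases did not pass. *Tecr* (ENSMUSG00000031708, chr8:83571698-83607971, minus strand), the enzyme of the closing reduction, ranged from 89.2 to 124 CPM (median 119) in the A226Y mice and from 123 to 170 CPM (median 140) in the WT mice. Of the 10 A226Y mice, 9 lay below every WT mouse, and only A226Y mouse 22 and WT mouse 4 met at the border. The mean fell from 145 ± 19.4 CPM (SD, n = 8) to 114 ± 10.6 CPM (SD, n = 10), which was 78.8% of WT (log2 fold change −0.34, SE 0.08, adjusted p = 0.00794, edgeR quasi-likelihood test). The exact permutation test adjusted over all genes gave p = 0.0054. With any 1 mouse left out the log2 fold change stayed between −0.38 and −0.31 and the adjusted p at or under 0.0199 (edgeR).

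*Hsd17b12* (ENSMUSG00000027195, chr2:94032689-94157964, minus strand), the ketoacyl-CoA reductase, ranged from 69.8 to 121 CPM (median 99.0) in A226Y and from 106 to 146 CPM (median 118) in WT. Of the A226Y mice, 7 lay below every WT mouse and the other 3 lay among them. The mean was 99.9 ± 14.9 CPM (SD, n = 10) against 121 ± 14 CPM (SD, n = 8), or 82.6% of WT (log2 fold change −0.28, SE 0.09, adjusted p = 0.0478, edgeR quasi-likelihood test). The call was lost in 13 of the 18 fits with 1 mouse left out, where the adjusted p ran from 0.0283 to 0.106 (edgeR), and it was lost without mice 29 and 33 (−0.22, adjusted p = 0.0608, edgeR). The exact permutation test adjusted over all genes gave p = 0.0501.

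*Hacd2* (ENSMUSG00000035376, chr16:35022428-35109177, plus strand) and *Hacd3* (ENSMUSG00000033629, chr9:64986983-65021693, minus strand) encode the dehydratases. *Hacd2* ranged from 31.4 to 40.5 CPM (median 38.5) in A226Y and from 34.2 to 43.2 CPM (median 36.7) in WT, and *Hacd3* from 184 to 284 CPM (median 257) and from 211 to 294 CPM (median 250). Both overlapped between genotypes over nearly the whole range. The log2 fold changes were −0.01 (95% interval −0.13 to 0.12, adjusted p = 0.962, edgeR) for *Hacd2* and 0.02 (−0.16 to 0.19, adjusted p = 0.901, edgeR) for *Hacd3*, and the sign of each turned under some settings. These intervals did not reach the log2 fold change of *Tecr*. The log2 ratio of *Hacd2* to *Hacd3* differed by −0.02 (two-sided exact permutation p = 0.806, also after adjustment over 4 ratios).

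Per kilobase of exon, *Elovl2* had the highest level in WT livers, at 131 ± 20.5 CPM per kb (SD, n = 8). *Fads2* (109 ± 31.2), *Elovl5* (99.2 ± 21.3), *Hacd3* (92.5 ± 10.9) and *Fads1* (90.2 ± 24.9) followed, each differing from the next by less than either SD, then *Tecr* (66.3 ± 8.83) and *Hsd17b12* (50.2 ± 5.83), all in CPM per kb. *Hacd2* (10 ± 0.881) and *Elovl1* (9.93 ± 1.15) differed by less than their spread, and *Elovl3* came last at 2.32 ± 1.55 CPM per kb. In A226Y livers *Elovl2* (173 ± 36.5 CPM per kb, SD, n = 10) and *Elovl5* (115 ± 21.1) led, and *Fads1* stood at 59.3 ± 6.26, near *Tecr* at 52.2 ± 4.85. With the length of the longest coding transcript in place of all exons, 7 of the 10 genes took another rank in WT, and *Elovl2* stayed first and *Elovl3* last.

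**Figure D3:**
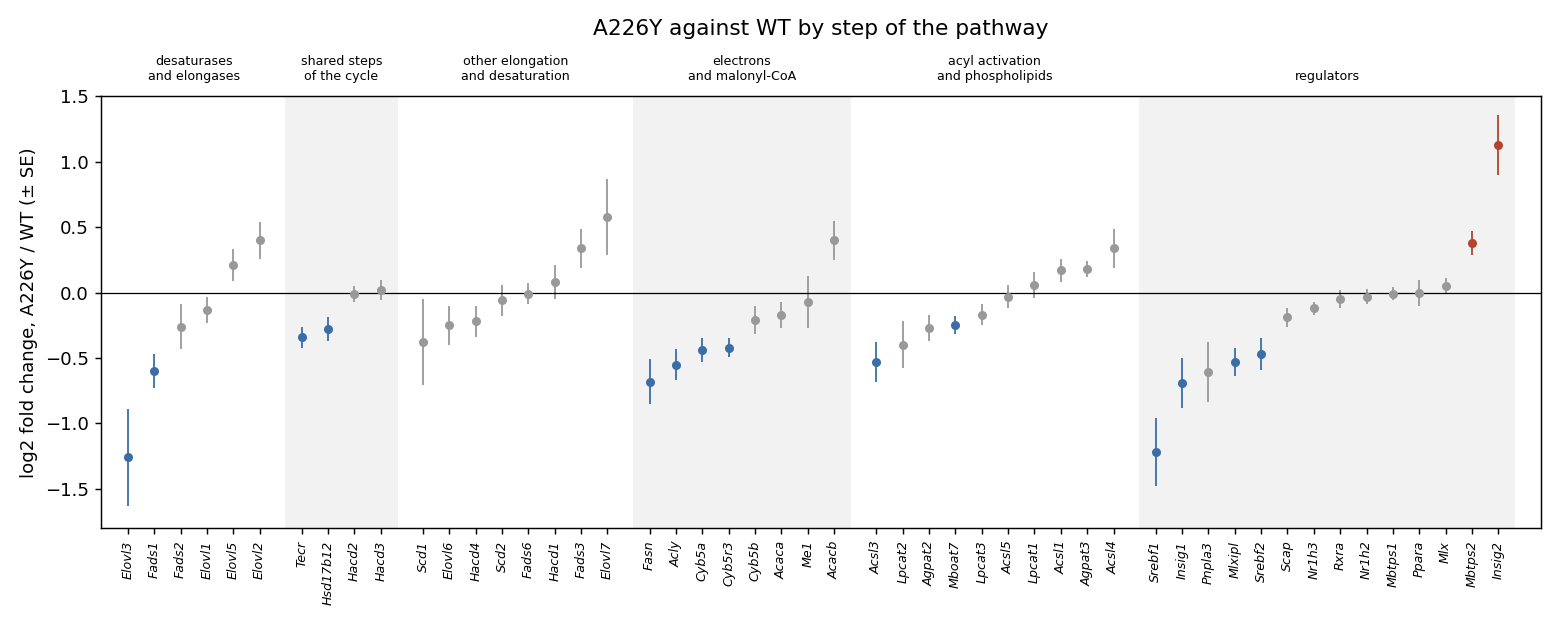
Log2 fold change of A226Y over WT with its SE (edgeR) for the 10 members, in the leftmost pair of blocks, and for the tested genes of 4 lists of the surrounding pathway. Blue marks genes lower and red genes higher at an adjusted p under 0.05, and grey the rest. Among the members *Elovl3*, *Fads1*, *Tecr* and *Hsd17b12* are blue, and *Srebf1* (−1.22) and *Insig2* (1.13) lie at the extremes of the regulators.

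The remaining elongation and desaturation genes did not pass the test, 0 of 8 in either direction (*Elovl4*, *Scd3* and *Scd4* had too few counts), with −0.03 as the median log2 fold change. Without A226Y mouse 5, 1 of them was higher. *Scd1*, the main monounsaturating desaturase of the liver, measured 1322 ± 701 CPM (SD, n = 10) in the mutant livers against 1722 ± 957 CPM (SD, n = 8) (log2 fold change −0.38, SE 0.33, adjusted p = 0.462, edgeR). *Elovl6*, the elongase that follows fatty acid synthase, had a log2 fold change of −0.25 (adjusted p = 0.263, edgeR).

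The list of electron supply, malonyl-CoA production and other lipogenic enzymes held 8 genes. Of these, 4 passed as lower and none as higher, and the median of their log2 fold changes was −0.31. In other fits 1 gene of the list was higher with library size alone, DESeq2 or the GC offset, and without A226Y mouse 5 or WT mouse 13. *Cyb5r3*, the reductase that loads cytochrome b5, measured 159 to 217 CPM (median 185) in A226Y and 211 to 293 CPM (median 262) in WT, and 8 of 10 A226Y mice lay below every WT mouse (log2 fold change −0.42, SE 0.07, adjusted p = 0.00213, edgeR). *Cyb5a*, the electron carrier itself, measured 606 to 936 CPM (median 808) against 806 to 1320 CPM (median 1102), with 5 A226Y mice below every WT mouse (log2 fold change −0.44, SE 0.09, adjusted p = 0.00569, edgeR). The lipogenic enzymes *Acly* (−0.55, adjusted p = 0.00531) and *Fasn* (−0.68, adjusted p = 0.0145) made up the rest of the 4 (log2 fold changes, edgeR). *Acaca* (−0.17, adjusted p = 0.242) and *Acacb* (0.40, adjusted p = 0.0717), the malonyl-CoA producing carboxylases, did not pass (edgeR).

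Downstream of the members, 2 of 10 genes of acyl activation and phospholipid use were lower. They were *Mboat7*, which places arachidonic acid in phosphatidylinositol (−0.25, SE 0.07, adjusted p = 0.0161), and the acyl-CoA synthetase *Acsl3* (−0.53, SE 0.15, adjusted p = 0.0261; log2 fold changes, edgeR). No gene of this list was higher, with a median of −0.10 for the log2 fold change over its tested genes. The number lower was 1 without WT mouse 14 or with the GC offset, and 3 without WT mouse 6, A226Y mouse 15 or A226Y mouse 29. With library size alone, DESeq2 or the GC offset, and without A226Y mouse 5, WT mouse 6 or A226Y mouse 29, 1 gene was higher.

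The regulators of these genes moved in both directions, with 4 of 14 lower and 2 higher and a median log2 fold change of −0.08. *Srebf1*, the lipogenic transcription factor known to act on desaturase and elongase genes, ranged from 42.3 to 158 CPM (median 86.3) in A226Y and from 114 to 314 CPM (median 188) in WT. Of 10 A226Y mice, 8 lay below every WT mouse (log2 fold change −1.22, SE 0.26, adjusted p = 0.00551, edgeR). *Srebf2* (−0.47, adjusted p = 0.0151), *Mlxipl*, the carbohydrate-responsive factor (−0.53, adjusted p = 0.00389), and *Insig1*, which retains SREBP in the endoplasmic reticulum (−0.69, adjusted p = 0.0227), were lower as well (log2 fold changes, edgeR). *Insig2*, its paralogue, was higher, at 132 to 582 CPM (median 208) against 90.9 to 143 CPM (median 113), with 9 of 10 A226Y mice above every WT mouse (log2 fold change 1.13, SE 0.23, adjusted p = 0.00423, edgeR). *Mbtps2*, which encodes the protease of the intramembrane cut that frees SREBP, was higher by a log2 fold change of 0.38 (adjusted p = 0.0107, edgeR).

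In whole liver, fewer cells of a type and less RNA per cell cannot be told apart. Hepatocyte markers were lower for 1 and higher for 1 of 8 (*Serpina1c* and *Apob*). Kupffer cell markers had negative log2 fold changes for 7 of 8 genes, of which *Clec4f* passed, and summed to 271 to 1151 CPM (median 382) in A226Y and 411 to 752 CPM (median 604) in WT. The collagens *Col1a1*, *Col1a2* and *Col3a1* were lower among 8 stellate cell markers, of which 5 had negative log2 fold changes, while the 8 summed to 321 to 396 CPM (median 363) in A226Y and 308 to 395 CPM (median 341) in WT. *Tspan8* was higher among 6 bile duct markers, all with positive log2 fold changes (median 0.28), *Cidec* was higher as the 1 adipocyte marker tested, and none of 8 endothelial or 8 lymphoid markers passed. All 8 lymphoid markers had negative log2 fold changes (median −0.39). No marker was at 0 in every mouse. The part of these cells in the members' results was not tested. Leaving out the mice with the highest Kupffer and lymphoid sums (29 and 33) was a setting chosen after seeing the data. In that fit 3 members were lower (*Elovl3*, *Fads1* and *Tecr*) and 1 higher (*Elovl2*), while 1212 of all 13269 tested genes were lower and 1151 higher.

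**Figure D4:**
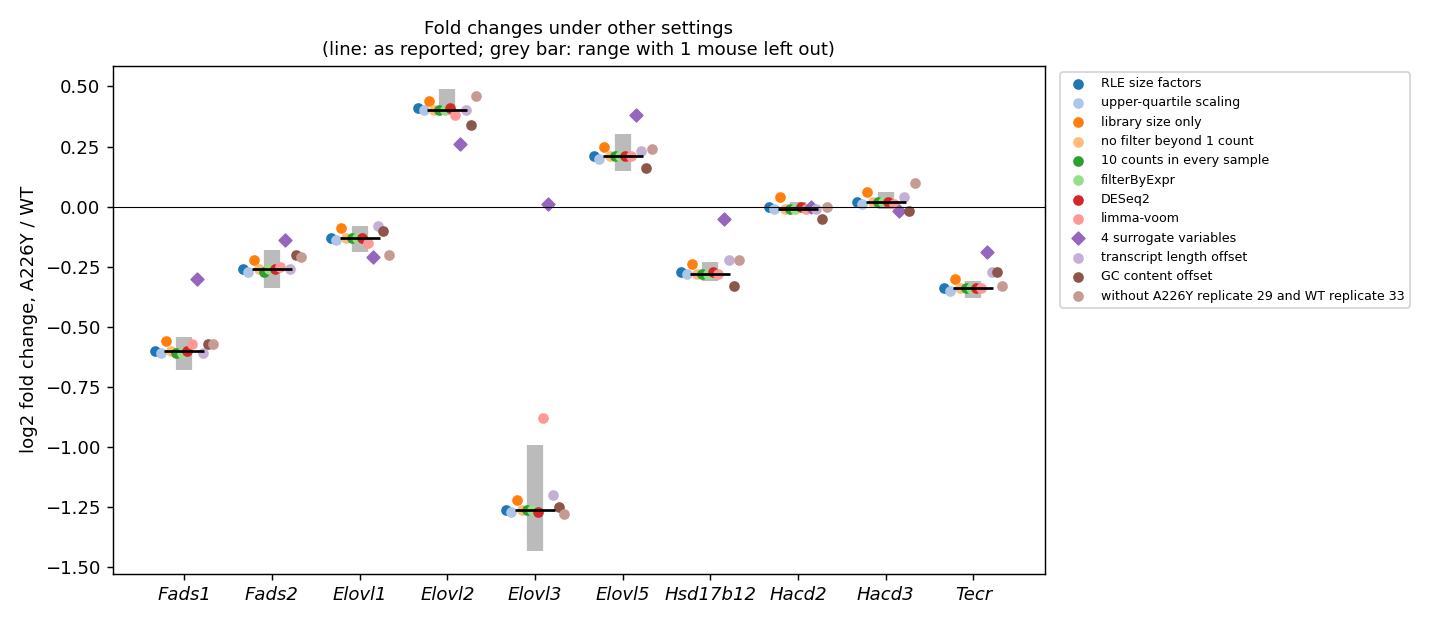
Log2 fold change of A226Y over WT for each member as reported (black line), under 12 other settings (points) and with 1 mouse left out at a time (grey bar, lowest to highest). *Fads1* and *Tecr* stay below 0 throughout, while the fit with 4 surrogate variables (diamond) brings *Elovl3* to 0.01 and *Hsd17b12* to −0.05.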

How the data were processed

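Single-end reads of 50 bases from 18 livers were processed by the authors. They deposited raw counts, 1 whole number for each Ensembl gene in each mouse. The labels name STAR, featureCounts and GRCm38, whereas the methods name RSEM with another annotation, and which of these made the counts is not stated. No source used here says whether strand was used in counting. Groups were taken from the sample labels, and no label ties the mice to litters or batches.

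Identifiers were matched to GENCODE M21 (GRCm38; 22214 of 22524). A gene entered the test (13353 did) if 50% or more of the mice of 1 genotype held 10 counts or more of it. The test was that of edgeR 4.0.16 in R 4.3.3 (TMM, quasi-likelihood test, no covariates, Benjamini-Hochberg over all tested genes), as the study also used edgeR. An SE is the log2 fold change divided by the square root of F. Single genes and log2 ratios (pseudocount 0.5) were also compared over all 43758 divisions of the mice, so p could not go below 2.29e-05. Alternatives were other scalings and filters, DESeq2 1.42.0, limma-voom 3.58.1, 4 surrogate variables (sva 3.50.0), length and GC offsets, and leaving out mice. The fits were tested on simulated counts. Each mouse had at least 23850565 counts, but counting error was not compared with the spread between mice. Relative to the level it is largest for *Elovl3*, the member with the fewest counts (20 to 328 per mouse).

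The members and lists were chosen with earlier results of these data known. Named beside the members are *Rps2*, the list genes that passed (up to 6 per list) and the 3 genes most correlated with each member (mean of at least 5 CPM). Clock and marker genes are named where they passed the test, and *Nr1d1* and *Dbp* for their tested relations with *Elovl3*. *Acaca*, *Acacb*, *Scd1* and *Elovl6* were added after their values were seen. Promoter sequences came from RefSeq. The results of some genes and of 1 list are not reported here.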

Additional observations from a re-analysis of the deposited data

Results flagged for a closer look

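In 8 of 30 groups of values tested, 1 mouse lay farther from the rest of its genotype than Dixon's 95% limit allows, a flag that chance gives in about 1 of 20 groups. Of the 8, 6 came from A226Y mouse 29. *Elovl2* was lowest there, at 319 CPM, with the next A226Y mouse at 581 CPM. *Fads1* was lowest there too, at 210 CPM with the next at 268 CPM, as was *Fads2*, at 141 CPM with the next at 273 CPM, and *Hacd3*, at 184 CPM with the next at 239 CPM. The same mouse had the lowest log2 ratio of *Fads2* to *Fads1* (−0.58, next −0.08) and of *Elovl2* to *Elovl5* (−0.06, next 0.54). Among WT mice, mouse 6 had the highest *Elovl2* (690 CPM, next 557 CPM) and mouse 14 the highest *Elovl5* (506 CPM, next 380 CPM).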

How the results depend on the processing

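Over 12 other settings *Fads1* ran from −0.61 to −0.30 and *Tecr* from −0.35 to −0.19 in log2 fold change, and each kept its call in 11. With 4 surrogate variables no call remained (*Fads1* −0.30, adjusted p = 0.312; *Tecr* −0.19, 0.378; *Hsd17b12* −0.05, 0.817; *Elovl3* reversed to 0.01, 0.997; edgeR), members lower numbered 0, and 21 genes were lower and 29 higher in all, with 0 lower in each surrounding list; the cause was not tested. *Hsd17b12* lost its call in 6 of 12 settings. *Hacd2* reversed with library size alone (0.04), and *Hacd3* with surrogate variables (−0.02) and with the GC offset (−0.02). The count of members higher was 1 (*Elovl2*) with library size alone, with DESeq2, and without A226Y mouse 29 and WT mouse 33, a setting chosen after seeing the data that also moved the *Hacd2* to *Hacd3* difference to −0.11. Library size alone also gave 660 genes lower and 1399 higher (67.9% higher, against 50.8% of 939 and 971). DESeq2 gave 1171 and 1247.

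With 1 mouse left out, members lower numbered 2 to 4 (2 without WT mouse 13, 14 or 21) and members higher 0 to 1 (1 without WT mouse 6 or A226Y mouse 29). Genes lower numbered 622 to 1372 and genes higher 633 to 1268, with 622 and 633 without WT mouse 14 and 641 higher without WT mouse 24. *Hacd2* then ran from −0.02 to 0.02, *Hacd3* from −0.01 to 0.06, and the difference in the log2 ratio of *Hacd2* to *Hacd3* from −0.08 to 0.02. That of *Elovl3* to *Elovl1* ran from −1.18 to −0.61, of *Fads2* to *Fads1* from 0.28 to 0.38, and of *Elovl2* to *Elovl5* from 0.10 to 0.25. No paired analysis was possible because no label pairs a mouse of 1 genotype with a mouse of the other.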

Other observations

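The genes whose levels went most closely with each member were read from log2 CPM centred on the genotype mean over 18 mice, as a description, since the genes share libraries and depth. *Fads1* and *Fads2* were among the closest for each other (r = 0.87), and *Csrp3* (0.89; log2 fold change −0.76, adjusted p = 0.037, edgeR) and *Them7* (0.87) went with *Fads1*, *Prdx3* and *Pcbd1* (both 0.85) with *Fads2*. *Elovl3* went with *Lgals1* (0.82), which fell in A226Y by 1.25 on the log2 scale (adjusted p = 0.00434, edgeR), and with *Cryzl2* (0.82; log2 fold change −0.42, adjusted p = 0.0243, edgeR) and *Abcb1a* (0.81). *Hsd17b12* went with the epoxygenase *Cyp2j5* (0.90; log2 fold change −0.54, adjusted p = 0.0109, edgeR), *Slc39a9* and *Ulk2* (both 0.88), and *Tecr* with *Reep6* (0.86; −0.29, adjusted p = 0.0457, edgeR), *Dag1* (0.83) and *Sema6a* (0.82). *Elovl2* went with *C1rl* (0.92, but 0.76 without A226Y mouse 29), *Marveld2* (0.90) and *Pmpca* (0.89), and *Hacd3* with *Fam19a2* (0.91), the bile acid enzyme *Cyp8b1* (0.85) and *Foxa3* (0.81). Without that mouse r also fell for *Pmpca* (0.72), for *Foxa3* (0.71) and for *Pcbd1* with *Fads2* (0.72). *Elovl1* went with *Grina* (0.90), *Dynll1* (0.87) and *Tmem258* (0.85), *Elovl5* with *Yif1a* (0.80) and *Commd10* (0.77), and *Hacd2* with *Atp5j* (0.84), *Stoml2* (0.83) and *Pex14* (0.82).

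Among the 45 pairs of members, r was above 0.5 in 13 and below 0 in 10. The share of all gene pairs above 0.5 was not computed, so these counts are a description only. A226Y mouse 29 was included in every pair. *Fads1* with *Tecr* (0.76), both lower in A226Y, was the closest pair after the desaturases. The negative pairs all held *Elovl1* or *Elovl3*, with *Elovl2* and *Elovl3* the most opposed (−0.32).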
